A study of Mus musculus with 24 samples.

Results

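The change in the EV-to-cell ratio of small RNAs with stimulation was measured in mouse CD4+ T cells and in the extracellular vesicles (EVs) recovered from their culture media. For each RNA the log2 ratio of its level in EVs over its level in the cells was taken in stimulated cultures, and the same log2 ratio in resting cultures was subtracted from it. A negative change therefore means that the RNA was scarcer in EVs, relative to the cells, in stimulated cultures than in resting ones. Every one of the 4408 features listed in the deposited count tables was tested, in 12 of the 24 libraries of the series.

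The 4 groups held 3 libraries each and were EVs from stimulated cultures, stimulated cells, EVs from resting cultures and resting cells. C57BL/6 mice gave the T cells, from lymph nodes and spleen, which were grown in high-glucose DMEM, and Trizol was used to extract RNA. For stimulated cells, culture lasted 3 days on plates coated with antibody to CD3 (2 µg/ml) and to CD28 (5 µg/ml), which engage the T cell receptor complex and its co-receptor. Resting cells had gone through 2 days of stimulation, 1 day of expansion and 2 days of rest in IL2 medium, so they were previously activated cells and not naive ones. Culture time and earlier treatment differed between the arms, and their effects cannot be told apart from that of the antibodies. A further pair of groups, EVs and cells from cultures stimulated for 3 days with DMSO as a vehicle, is set beside the stimulated groups at the end. Whether replicate libraries stem from different mice or cultures is not stated in the labels, so p-values measure the spread between libraries, which may be technical.

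EVs are membrane particles that cells release by budding from the surface or by fusion of multivesicular endosomes with it, and they carry RNA from the cytoplasm. Their small RNA includes miRNAs, which guide Argonaute proteins to mRNAs through the seed at bases 2 to 8, and fragments of tRNAs, which are cut from the 5′ or 3′ end of the mature tRNA. Y RNAs, vault RNA, 7SL (the RNA of the signal recognition particle) and 7SK (which holds the elongation factor P-TEFb inactive) are short cytoplasmic or nuclear RNAs made by RNA polymerase III. Mitochondrial tRNAs and rRNAs are transcribed and processed inside the organelle. T cell activation is known to change the miRNA content of the cells, with miR-155, miR-132 and miR-212 among the induced ones and miR-150 among those lost.

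The sequences on which the miRNA results turn are shown with the seed in capitals. They are mature arms as RefSeq gives them for GRCm38.p6. The deposited counts were per precursor, so the arms were not separated, and the arm shown is the one usually most abundant. miR-212-3p (chromosome 11, 75173443 to 75173464, plus strand) and miR-132-3p (chromosome 11, 75173723 to 75173744, plus strand) come from neighbouring precursors and share the seed AACAGUC. miR-182-5p (30165962 to 30165986), miR-96-5p (30169506 to 30169528) and miR-183-5p (30169711 to 30169732) come from 1 cluster on the minus strand of chromosome 6. The others are the hypoxia-responsive miR-210-3p (chromosome 7, 141221407 to 141221428, minus strand), the activation marker miR-155-5p (chromosome 16, 84714143 to 84714165, plus strand) and the red-cell miR-451a (chromosome 11, 78073186 to 78073207, plus strand). miR-181a-5p is made from 2 precursors, on chromosome 1 (137966468 to 137966490) and chromosome 2 (38852741 to 38852763), both on the plus strand.
miR-212-3p: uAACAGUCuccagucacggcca
miR-132-3p: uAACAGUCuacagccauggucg
miR-182-5p: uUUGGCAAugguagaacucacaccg
miR-96-5p: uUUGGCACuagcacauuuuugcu
miR-183-5p: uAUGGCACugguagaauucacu
miR-210-3p: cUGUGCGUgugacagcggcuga
miR-155-5p: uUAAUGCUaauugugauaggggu
miR-451a: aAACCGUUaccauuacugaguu
miR-181a-5p: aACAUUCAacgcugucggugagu

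Of the mitochondrial tRNAs, those with the largest and the smallest change of ratio and 1 between them are shown as GENCODE M21 gives them on GRCm38. mt-Ti, the isoleucine tRNA, lies at chrM:3706-3774 on the plus strand, mt-Ta, the alanine tRNA, at chrM:5018-5086 on the minus strand, and mt-Tv, the valine tRNA, at chrM:1025-1093 on the plus strand. Their G and C shares were 27.5%, 33.3% and 39.1%.
mt-Ti: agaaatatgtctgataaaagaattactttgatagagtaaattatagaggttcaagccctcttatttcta
mt-Ta: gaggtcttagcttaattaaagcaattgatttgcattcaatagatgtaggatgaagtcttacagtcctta
mt-Tv: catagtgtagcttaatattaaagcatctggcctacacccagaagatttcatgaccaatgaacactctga

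The change of ratio passed the test for 1580 of the 4408 features (35.8%), with 912 lower (20.7%) and 668 higher (15.2%) in stimulated than in resting cultures. The test was the quasi-likelihood test of edgeR, adjusted after Benjamini and Hochberg over all 4408 features, a feature was called at an adjusted p under 0.05, and levels are CPM, the counts of a feature relative to the library's total after scaling by TMM. The median change over all features was -0.04 on the log2 scale. The scaling bears on the split: with library totals every change moved up by about 0.30 and 899 of 1576 called features were higher, and with TMM factors taken from miRNAs alone changes moved up by 0.43 and 888 of 1410 were higher. Levels are relative abundances within a library, so fewer copies of an RNA and more of all others cannot be told apart, nor can fewer vesicles of a kind and less RNA in each. CPM differences between cultures depend on the scaling too. Y and vault RNAs together took 0.46% to 0.546% of unscaled counts in stimulated EVs and 0.346% to 0.449% in resting EVs. Their median TMM-scaled log2 level difference in EVs, stimulated against resting, was -0.88. The share is pooled and the median is taken per RNA, so these measures differ in pooling as well as in scaling.

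The libraries held 1962923 to 3231626 counts in these 4 groups. The 5 lymphocyte miRNAs used as markers (Mir142, Mir150, Mir155, Mir181a-1 and Mir181a-2) were all listed and together made up 55370 to 62510 CPM in stimulated EVs, 79080 to 105600 CPM in the stimulated cells, 173700 to 243800 CPM in resting EVs and 240400 to 270200 CPM in resting cells. Markers of muscle (5 miRNAs), stroma (6), liver (Mir122) and myeloid cells (Mir223) were not listed, and neither were 5 of 7 epithelial and 3 of 4 erythroid ones. No feature with under 4 reads in any library was listed, so a marker that was not listed need not have been absent. The 2 listed epithelial markers (Mir200c and Mir141) together had 88.5 to 108.9 CPM in stimulated EVs and 108.5 to 141.2 CPM in stimulated cells. At rest they had 123.3 to 141.3 CPM in EVs and 88.84 to 103.3 CPM in cells. The classes shifted strongly with stimulation. The share of miRNAs was 32.5% to 33.6% in stimulated EVs, 35.3% to 39.8% in stimulated cells, 50.1% to 52.7% in resting EVs and 53.5% to 54.5% in resting cells. Fragments in protein-coding and long non-coding genes that hold no listed small RNA took 25.4% to 28.6% in stimulated EVs, 16.5% to 21.1% in stimulated cells, 7.43% to 8.62% in resting EVs and 5.62% to 6.06% in resting cells. Here and below, nuclear tRNA loci were not among the small RNAs looked for inside genes, so genes that hold only such loci stay in this set.

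**Figure D1:**
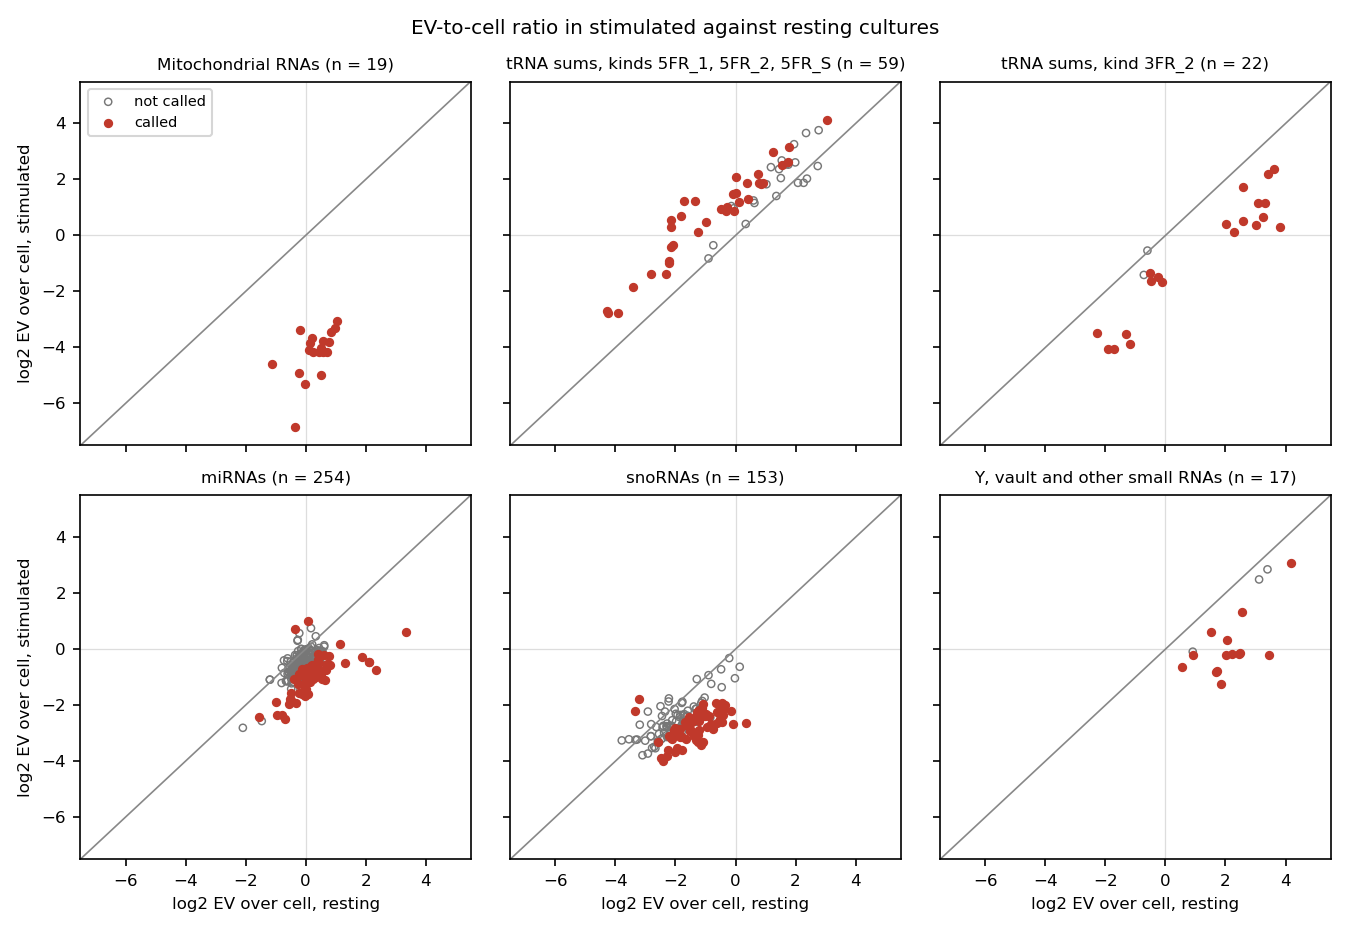
Each point is 1 RNA, with its log2 EV-to-cell ratio in resting cultures on the x axis and in stimulated cultures on the y axis (log2, 3 libraries per group), and filled points had a called change. Points on the diagonal had equal ratios: all 19 mitochondrial RNAs and 20 of the 22 sums of 3FR_2 tRNA fragments were called below it, and 36 of the 59 sums of the kinds 5FR_1, 5FR_2 and 5FR_S were called above it.

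All 19 listed mitochondrial RNAs changed in 1 direction. The 10 listed mitochondrial tRNAs and the 9 listed mitochondrial rRNAs and mRNAs each had a lower EV-to-cell ratio in stimulated cultures, against 20.7% of all features called lower. The median change was -4.66 (log2) for the tRNAs and -4.20 for the rRNAs and mRNAs. In stimulated cultures the median log2 EV-to-cell ratio was -4.18 for the tRNAs and -3.84 for the rRNAs and mRNAs, while in resting cultures it was 0.47 and 0.23. Stimulated against resting, the median log2 difference in level over the 10 tRNAs was -3.44 in EVs and 1.25 in cells.

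mt-Ti had 5.0, 3.48 and 5.81 CPM in stimulated EVs, 455.3, 716.5 and 469.7 CPM in the stimulated cells, 50.6, 61.1 and 82.7 CPM in resting EVs, and 67.0, 105.0 and 79.2 CPM in resting cells. The stimulated EVs were below every other library and the stimulated cells above every other library, while resting EVs and resting cells overlapped. Its change of ratio was -6.48 ± 0.36 (log2, SE; edgeR quasi-likelihood adjusted p = 1.52e-12). mt-Ta had 4.75, 3.48 and 6.90 CPM in stimulated EVs, 121.7, 192.4 and 161.0 CPM in the stimulated cells, 34.0, 46.5 and 43.5 CPM in resting EVs, and 34.7, 21.9 and 30.8 CPM in resting cells. It changed by -5.49 ± 0.41 (adjusted p = 1.96e-10, same test), again with stimulated EVs lowest, stimulated cells highest and overlap between the resting groups. mt-Tv, the least changed of the 10, had 18.5, 23.8 and 26.9 CPM in stimulated EVs, 175.5, 188.4 and 201.7 CPM in the stimulated cells, 214.9, 182.7 and 178.5 CPM in resting EVs, and 85.1, 87.7 and 102.9 CPM in resting cells. For mt-Tv it was the resting EVs that lay with the stimulated cells at the top, and its change was -4.10 ± 0.29 (adjusted p = 6.32e-11).

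The mitochondrial rRNAs, which build the organelle's ribosome, followed. mt-Rnr1, the small-subunit rRNA, had 90.5, 96.6 and 71.9 CPM in stimulated EVs, 1266, 1576 and 1584 CPM in the stimulated cells, 451.2, 426.5 and 524.0 CPM in resting EVs, and 457.9, 398.7 and 445.1 CPM in resting cells. The stimulated EVs were lowest, the stimulated cells highest and the resting groups overlapped, a change of -4.20 ± 0.25 (adjusted p = 4.06e-12). mt-Rnr2, the large-subunit rRNA, had 85.7 to 106.4 CPM in stimulated EVs, 2151 to 2393 CPM in the stimulated cells, 549.5 to 594.2 CPM in resting EVs and 1204 to 1274 CPM in resting cells. It was the only one of the 19 whose resting EVs lay below the resting cells in every library, and its change was -3.49 ± 0.22 (adjusted p = 1.06e-11). The 7 mRNAs listed, for subunits of complex I (mt-Nd1, mt-Nd4, mt-Nd5), complex III (mt-Cytb) and complex IV (mt-Co1, mt-Co2, mt-Co3), changed by -4.74 to -3.21. These 19 calls held in each leave-one-out and scaling alternative run. Of the 10 tRNAs, 6 are encoded on the plus strand and 4 on the minus strand. The tables list no feature with under 4 reads in any library, so a mitochondrial tRNA at a lower level in EVs would not appear.

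**Figure D2:**
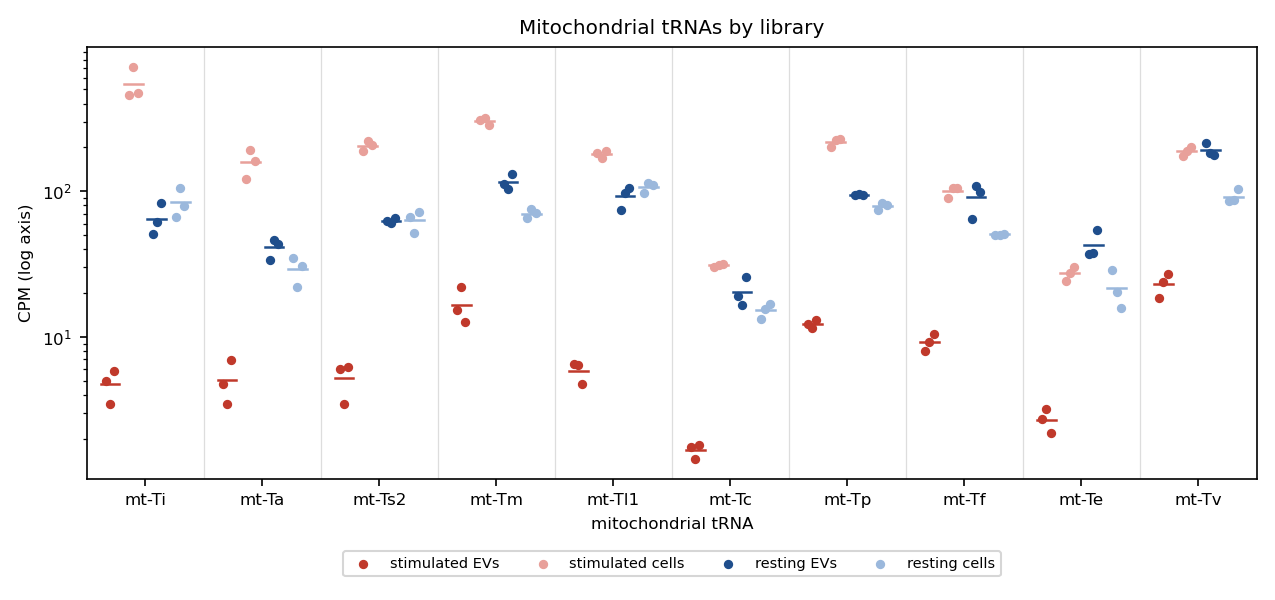
CPM (log axis) of the 10 listed mitochondrial tRNAs in each library, with points for the 3 libraries and a line for their mean, in stimulated EVs, stimulated cells, resting EVs and resting cells. In each of the 10 the stimulated EVs are the lowest group, for mt-Ti at 3.48 to 5.81 CPM.

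Fragments of nuclear tRNAs differed by fragment kind. The 780 tRNA features are named by locus and by the authors' fragment kind, where the first digit gives the tRNA end a fragment comes from. Loci of 1 anticodon can share reads, so they were summed by anticodon and kind into 170 sums, and a second fit was run on the table of 3525 features that this left, where 1130 (32.1%) were called, 453 higher (12.9%) and 677 lower (19.2%). Of the 170 sums, 54 were higher and 31 lower, with a median change of 0.45, against -0.07 over all features of that table. Of the 59 sums of the kinds 5FR_1, 5FR_2 and 5FR_S, 36 were higher and 0 lower at the adjusted p (median 1.15). With the 2 other kinds of the 5′ end (5_half_up and 5_Internal_half) there were 77 sums, 38 higher and 2 lower (median 0.99). Of the 22 sums of the 3FR_2 kind, 20 were lower and 0 higher (median -1.79).

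The 5FR kinds differed among themselves. 5FR_2 sums were higher for 15 of 17 anticodons (median 1.42), 5FR_S sums for 9 of 11 (1.37) and 5FR_1 sums for 12 of 31 (0.95). 5FR_1 fragments were already in excess in resting EVs, with a median log2 EV-to-cell ratio of 2.03 in stimulated and 1.45 in resting cultures. 5FR_2 fragments lay on the other side of 0 in resting cultures, with medians of 0.29 in stimulated and -1.71 in resting cultures. In TMM-scaled levels, cells differed more than EVs between stimulated and resting cultures in all 3 kinds. The median log2 level difference was -0.11 in EVs and -1.67 in cells for 5FR_2, -0.09 and -1.47 for 5FR_S, and -0.70 and -1.67 for 5FR_1. That order depends on the scaling. As an unscaled share of all counts, 5FR_2 fragments took 0.203% to 0.233% in stimulated and 0.0932% to 0.114% in resting EVs. In cells they took 0.206% to 0.21% in stimulated and 0.306% to 0.381% in resting cultures.

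Glycine and glutamate tRNAs gave 4 of the 5 highest sums. tRNA-Gly-GCC, whose 5′ fragments are among the most abundant in mammalian biofluids, had 5FR_2 sums of 274.8, 330.5 and 448.1 CPM in stimulated EVs, 155.6, 178.6 and 112.0 CPM in the stimulated cells, 207.8, 175.7 and 160.7 CPM in resting EVs, and 557.9, 566.1 and 650.3 CPM in resting cells. Stimulated EVs exceeded stimulated cells in every library, and resting EVs lay below resting cells in every library. The change was 2.95 ± 0.36 (log2, SE; edgeR quasi-likelihood adjusted p = 4.43e-07). The 5FR_1 and 5FR_S sums of the same tRNA changed by 2.05 (adjusted p = 0.00131) and 2.50 (adjusted p = 0.000117, edgeR). tRNA-Glu-CTC 5FR_2 had 227.4, 270.9 and 327.8 CPM in stimulated EVs, 187.3, 248.8 and 239.7 CPM in the stimulated cells, 343.2, 207.3 and 258.3 CPM in resting EVs, and 1037, 1237 and 1317 CPM in resting cells. In TMM-scaled CPM the EV groups overlapped here and the cell groups did not, a change of ratio of 2.44 ± 0.35 (adjusted p = 4.4e-06). tRNA-Glu-TTC 5FR_2, at 9.75 to 17.0 CPM in stimulated EVs, 7.80 to 9.57 CPM in the stimulated cells, 4.67 to 9.36 CPM in resting EVs and 26.1 to 37.4 CPM in resting cells, changed by 2.68 ± 0.54 (adjusted p = 0.000394).

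Leucine tRNAs held both directions. The 5FR_1 sum of tRNA-Leu-TAA had 103.9, 96.6 and 124.5 CPM in stimulated EVs, 45.8, 48.2 and 44.5 CPM in the stimulated cells, 86.4, 80.7 and 108.5 CPM in resting EVs, and 230.0, 234.1 and 233.7 CPM in resting cells. The EV groups overlapped, cells differed without overlap, and the change was 2.57 ± 0.40 (adjusted p = 1.85e-05). The 3FR_1_up sum of tRNA-Leu-TAG went the other way, with 11.4, 14.5 and 8.23 CPM in stimulated EVs, 83.1, 70.2 and 75.4 CPM in the stimulated cells, 29.2, 28.6 and 51.5 CPM in resting EVs, and 25.1, 32.6 and 37.1 CPM in resting cells, a change of -2.95 ± 0.53 (adjusted p = 0.000104). By amino acid, 11 of 14 proline sums were higher and 0 lower (median 1.23), 9 of 18 glycine sums were higher and 2 lower (1.05), and 4 of 17 leucine sums were higher and 8 lower (-1.04).

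The 3FR_2 fragments, which fell relative to cells for 20 of 22 anticodons, covered a wide range of starting ratios. tRNA-Asp-GTC 3FR_2 had 833.8, 886.4 and 838.2 CPM in stimulated EVs, 859.0, 533.7 and 703.9 CPM in the stimulated cells, 2050, 2943 and 4038 CPM in resting EVs, and 238.7, 202.8 and 191.1 CPM in resting cells. It was strongly in excess in resting EVs and near parity in stimulated cultures, a change of -3.55 ± 0.37 (adjusted p = 2.6e-08). tRNA-Cys-GCA 3FR_2 had 225.7, 234.3 and 290.2 CPM in stimulated EVs, 3516, 3841 and 3533 CPM in the stimulated cells, 3394, 3956 and 4121 CPM in resting EVs, and 6675, 8352 and 11020 CPM in resting cells. The stimulated EVs stood apart from the other 3 groups, and the change was -2.68 ± 0.35 (adjusted p = 1.05e-06). The sums of tRNA-Leu-TAG (-2.62 ± 0.50, adjusted p = 0.000204) and tRNA-Ala-AGC (-2.60 ± 0.62, adjusted p = 0.00203) completed the 5 lowest together with the 3FR_1_up sum above. The median level of the 22 sums differed by -2.37 (log2) in EVs and by -0.79 in cells, stimulated against resting.

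The 3FR_1 kind of the same end stood apart from this: 12 of 35 sums were higher, 0 lower, with a median of 0.48. For tRNA-Asp-GTC the 3FR_1 sum changed by 1.08 (adjusted p = 0.00198, edgeR) and the 3FR_2 sum by -3.55. For tRNA-Gly-GCC the 3FR_1 sum changed by 1.48 (adjusted p = 0.00015) and the 3FR_2 sum by -1.22 (adjusted p = 0.0241). The 5_half_up kind had 2 of 17 sums higher, from tRNA-His-GTG (1.72) and tRNA-Pro-CGG (1.65), and 2 lower, from tRNA-Lys-TTT (-1.99) and tRNA-Arg-CCG (-1.94), with a median of 0.21. The remaining kinds were small: 3 of 8 sums of 3_Internal were higher and 0 lower, and of 3FR_1_down, 3FR_1_up, 3_half_up and 3FR_S 3 of 9, 2 of 5, 2 of 5 and 2 of 4 sums were lower and 0 higher.

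**Figure D3:**
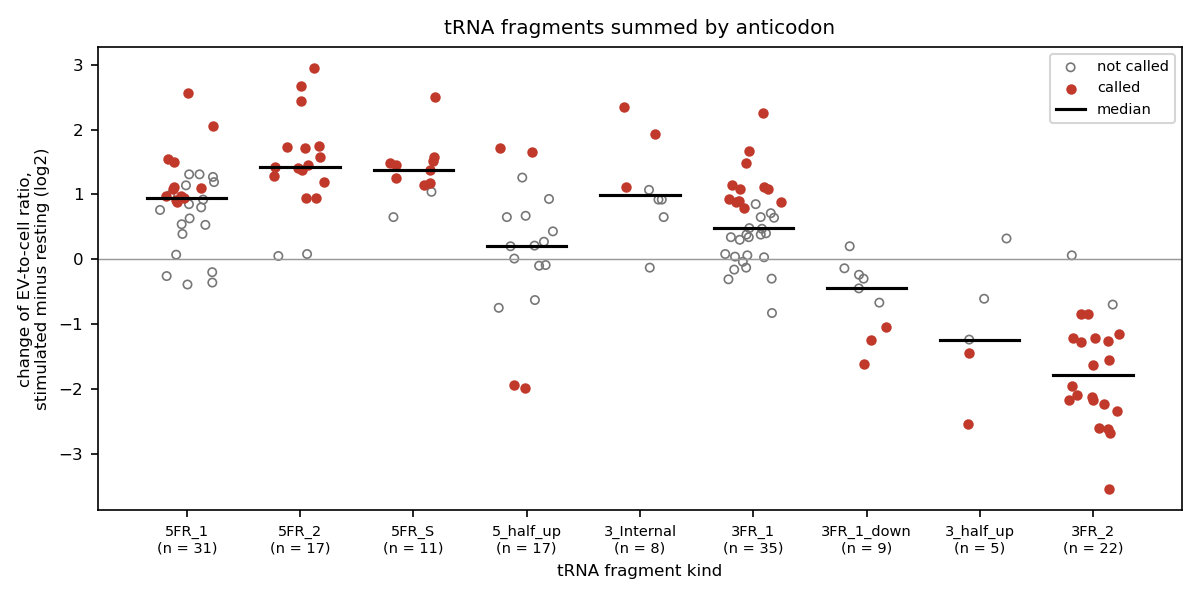
Change of the EV-to-cell ratio (log2, stimulated minus resting) for tRNA fragments summed by anticodon, by fragment kind, with 1 point per anticodon, filled where called, and a bar at the median. The medians are 0.95, 1.42 and 1.37 for 5FR_1, 5FR_2 and 5FR_S and -1.79 for 3FR_2.

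As a share of all counts, 5FR_1 fragments took 1.39% to 1.72% in stimulated EVs, 0.334% to 0.373% in stimulated cells, 0.863% to 1.16% in resting EVs and 0.615% to 0.644% in resting cells. 3FR_2 fragments took 0.366% to 0.426% in stimulated EVs, 0.954% to 1.06% in stimulated cells, 0.895% to 1.01% in resting EVs and 1.05% to 1.36% in resting cells. These shares use no scaling factor. In both cultures EVs exceeded cells in 5FR_1 and lay below them in 3FR_2, without overlap, and either gap was wider in stimulated cultures. The 3FR_2 share is carried by a few abundant sums, such as tRNA-Ala-TGC with means of 451.0 CPM in stimulated EVs, 5176 CPM in the stimulated cells, 4958 CPM in resting EVs and 12180 CPM in resting cells. Over the 22 anticodons the median log2 EV-to-cell ratio was -0.21 in stimulated and 0.97 in resting cultures. At rest 11 of the 22 sums were called higher in EVs than in cells and 6 lower, and in stimulated cultures 5 were higher and 10 lower.

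Few miRNAs had a higher ratio in stimulated cultures. Of 254 miRNAs, 62 were called lower (24.4%) and 2 higher (0.787%), against 20.7% lower and 15.2% higher over all features, and the median change was -0.55. In this fit the share called lower was thus near that of all features. The count depends on the scaling, with 36 lower (14.2%, against 15.4% of all features) and 5 higher when library totals were used (median -0.24) and 27 lower (10.6%, against 11.8%) and 6 higher with TMM factors from miRNAs alone (median -0.11), which sets the bulk of miRNAs near 0. Leaving out single libraries gave 41 to 67 lower, the fewest without stimulated EVs replicate 1 or replicate 2 (41 each). With the 12 libraries alone 103 were lower and 2 higher. Of 25 predicted miRNA loci, which carry no miRNA name, 15 were lower and 0 higher (median -2.16).

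Mir212 changed most among miRNAs. It had 200.0, 196.6 and 253.4 CPM in stimulated EVs, 290.1, 454.0 and 335.0 CPM in the stimulated cells, 817.0, 540.5 and 713.5 CPM in resting EVs, and 124.8, 137.1 and 151.3 CPM in resting cells. It was well above the cells in resting EVs and below them in stimulated EVs, with no overlap in either pair. The change was -3.06 ± 0.33 (log2, SE; edgeR quasi-likelihood adjusted p = 6.94e-08), and -2.62 (adjusted p = 2.02e-07) with TMM from miRNAs alone. Mir132, its cluster neighbour with the same seed, had 525.7, 527.3 and 655.2 CPM in stimulated EVs, 1188, 1344 and 1166 CPM in the stimulated cells, 1013, 869.7 and 804.1 CPM in resting EVs, and 576.9, 557.0 and 589.3 CPM in resting cells. It showed the same reversal at a smaller size, -1.75 ± 0.29 (adjusted p = 4.49e-05). In TMM-scaled levels, both were more abundant in stimulated than in resting cells, and less abundant in stimulated than in resting EVs. These directions between cultures are not given here under another scaling.

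Of the 17 miRNAs listed as induced by T cell activation, 14 were lower and 0 higher, with a median of -1.32. Over all features 20.7% were lower, and over all miRNAs 24.4%. The list was chosen with earlier results of these data known. Under library totals 11 were called lower (median -1.01), against 15.4% of all features and 14.2% of miRNAs. With TMM from miRNAs alone 8 were called lower (median -0.88), against 11.8% of all features and 10.6% of miRNAs. Mir155, which targets regulators of T cell signalling, had 6909, 7596 and 8861 CPM in stimulated EVs, 11440, 12720 and 11330 CPM in the stimulated cells, 4517, 4409 and 3914 CPM in resting EVs, and 3485, 3670 and 4086 CPM in resting cells. Its level was higher with stimulation in both compartments and the resting groups overlapped. The change was -0.80 ± 0.24 (adjusted p = 0.0128), and it was not called with TMM from miRNAs alone (-0.38, adjusted p = 0.0883). Mir146 (miR-146a), a brake on NF-κB signalling, changed by -0.96 ± 0.29 (adjusted p = 0.0131) and by -0.54 (adjusted p = 0.0547) under the 2 scalings.

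In TMM-scaled levels, most members of that list were less abundant in stimulated than in resting cells, although it is named for induction by activation. The resting cells here had been activated before. Level differences between cultures depend on the scaling, and the count of these members under another scaling is not given here. In cells 10 of the 17 had a lower and 5 a higher level (edgeR, median difference -0.87 on the log2 scale), where 46.1% of all features were called, 23.1% lower and 23.0% higher. Mir210 and the Mir182 cluster were among those lower in cells. Mir210 had 160.7, 173.7 and 216.7 CPM in stimulated EVs, 940.5, 1118 and 735.9 CPM in the stimulated cells, 3492, 2448 and 2708 CPM in resting EVs, and 4677, 4765 and 5553 CPM in resting cells. EVs lay below cells in both cultures, by more in the stimulated one, a change of -1.55 ± 0.32 (adjusted p = 0.000481). Mir182, whose product represses Foxo1, had 153.5, 155.2 and 220.0 CPM in stimulated EVs, 507.6, 635.9 and 470.5 CPM in the stimulated cells, 2738, 2092 and 2275 CPM in resting EVs, and 2394, 2717 and 2550 CPM in resting cells. The resting groups overlapped and the stimulated ones did not, and the change was -1.50 ± 0.34 (adjusted p = 0.00122). Its cluster partners Mir183 (-1.60 ± 0.39, adjusted p = 0.00225) and Mir96 (-1.32 ± 0.37, adjusted p = 0.00695) changed alike in size. Mir21a (-1.01 ± 0.41, adjusted p = 0.0577), Mir221 (-0.08) and Mir222 (-0.39) were not called.

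**Figure D4:**
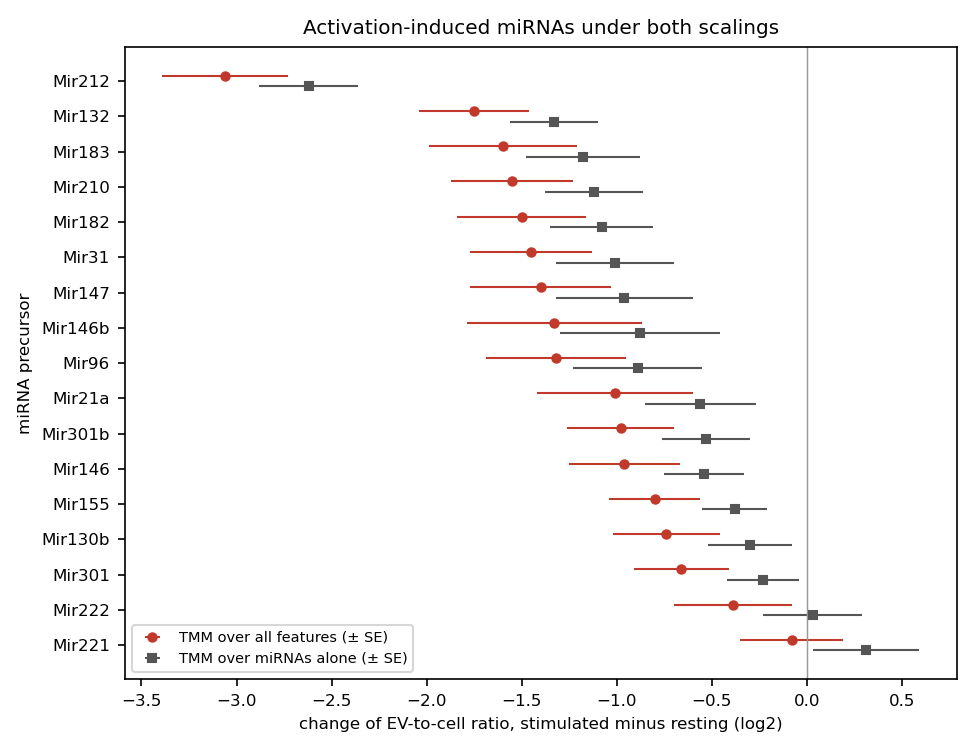
Change of the EV-to-cell ratio (log2, stimulated minus resting, ± SE) of the 17 activation-induced miRNAs with TMM factors from all features (circles) and from miRNAs alone (squares). The second scaling moves each miRNA up by about the same amount: Mir212 stands at -3.06 and -2.62, Mir155 at -0.80 and -0.38, and Mir221 at -0.08 and 0.31.

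The 2 miRNAs with a higher ratio were miRNAs of naive and resting T cells. Mir150, which restrains Myb, had 2594, 2602 and 4126 CPM in stimulated EVs, 1382, 1910 and 1393 CPM in the stimulated cells, 30470, 24370 and 22280 CPM in resting EVs, and 22850, 22530 and 26990 CPM in resting cells. EVs and cells overlapped in resting cultures, and EVs lay above cells in stimulated ones, a change of 0.90 ± 0.31 (adjusted p = 0.0243). This change was not called in 6 of the 12 leave-one-out fits or in the fit with a replicate block (0.89). Without stimulated EVs replicate 3 it was 0.64. Mir181a-1, which tunes T cell receptor sensitivity, had 166.5, 144.1 and 208.0 CPM in stimulated EVs, 97.2, 118.3 and 97.7 CPM in the stimulated cells, 233.9, 201.5 and 203.1 CPM in resting EVs, and 314.1, 246.8 and 247.2 CPM in resting cells. EVs were above cells in stimulated cultures and below them in resting ones, a change of 1.07 ± 0.29 (adjusted p = 0.00571). Its second precursor Mir181a-2, with the same mature sequence, changed by 0.79 ± 0.31 and was not called (adjusted p = 0.0525), but was with TMM from miRNAs alone (1.23, adjusted p = 0.000509).

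Calls in the other miRNA lists stand beside 20.7% lower and 15.2% higher over all features, and 24.4% and 0.787% over miRNAs. Of the 22 miRNAs listed for naive and resting T cells, 2 were higher and 2 lower (Mir29b-1 and Mir146), with a median of -0.03, and the sign of the median turned with the scaling (0.27 under library totals, 0.39 with TMM from miRNAs alone). Of 12 let-7 precursors, 0 were higher and 2 lower (Mirlet7d and Mirlet7e), with a median of -0.19 that also turned, to 0.12 and 0.25. Of the 15 members of miR-17-92 and its paralogous clusters 3 were lower (median -0.55), of the 6 members of miR-23/24/27 2 were lower (median -0.71, range -1.20 to -0.49), and the 6 members of miR-15/16 changed by -0.42 to 0.10 with no call in edgeR. Of the 6 members of miR-181 1 was higher, Mir181a-1. Several calls were unstable: Mir29b-1 lost its call in 9 of the 12 leave-one-out fits, Mir17 and Mirlet7d in 10 and Mir18 in 11. Mirlet7e lost it in 3, Mir20a in 2, Mir27a in 1, and Mir146, Mir23a and Mir181a-1 in 0. Under library totals 0 members of miR-17-92 and its paralogs and 0 let-7 precursors were called.

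Some strongly changed miRNAs are not typical ones of T cells. Mir451a, a miRNA of red cells whose counts equal those of the antisense Mir451b in every library, had 46.3, 33.1 and 71.9 CPM in stimulated EVs, 58.4, 83.5 and 64.4 CPM in the stimulated cells, 48.2, 95.9 and 80.6 CPM in resting EVs, and 31.4, 10.97 and 9.68 CPM in resting cells. Its change was -2.56 ± 0.52 (adjusted p = 0.000396), and resting cells were the low group. The other 3 erythroid markers (Mir144, Mir486a and Mir486b) were not listed, so red-cell RNA could be followed by this 1 marker only, and its part in the result was not tested. The endothelial and platelet miRNA Mir126a (-0.81, adjusted p = 0.0469, a call lost in each of the 12 leave-one-out fits and with either other scaling named above) was at 78.3 to 86.0 CPM in stimulated EVs, 101.1 to 114.9 CPM in the stimulated cells, 147.8 to 163.3 CPM in resting EVs and 109.9 to 116.7 CPM in resting cells. Mir6236, annotated as a miRNA, had 612.7, 674.9 and 740.9 CPM in stimulated EVs, 415.1, 437.0 and 454.6 CPM in the stimulated cells, 392.7, 233.4 and 214.1 CPM in resting EVs, and 30.6, 23.5 and 29.0 CPM in resting cells, a change of -2.70 ± 0.33 (adjusted p = 4.14e-07). EVs exceeded cells in both cultures, by more in the resting one. The others among the 8 lowest were Mir877 (-2.16 ± 0.45), Mir1949 (-1.82 ± 0.40 for 1 of its 2 lines), Mir2137 (-1.79 ± 0.44) and Mir193a (-1.69 ± 0.62, not called in 8 of the 12 leave-one-out fits), all at or under 268.4 CPM on average in every group.

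Structured RNAs annotated as miscellaneous, 6 named ones and 8 unnamed genes, were lower in ratio for 12 of 14 features and higher for 0, with a median change of -2.30. Their median log2 EV-to-cell ratio was -0.18 in stimulated and 2.04 in resting cultures. Rn7s1, an annotated 7SL gene, had 181.7, 208.2 and 211.3 CPM in stimulated EVs, 366.0, 311.3 and 347.6 CPM in the stimulated cells, 874.7, 841.3 and 1152 CPM in resting EVs, and 295.1, 299.2 and 283.2 CPM in resting cells. Cells were nearly level, EVs lay above them at rest and below them after stimulation, and the change was -2.48 ± 0.26 (adjusted p = 4.15e-08). The near-identical Rn7s2 gave -2.49 and can share its reads, and Rn7s6 gave -3.67 ± 0.29 (adjusted p = 3.31e-10). Rn7sk, the 7SK RNA, had 21.8, 20.3 and 21.4 CPM in stimulated EVs, 50.6, 46.7 and 51.8 CPM in the stimulated cells, 54.5, 59.1 and 50.8 CPM in resting EVs, and 15.7, 16.5 and 13.2 CPM in resting cells. Its EV and cell values did not overlap in either culture and stood in opposite order, a change of -3.08 ± 0.29 (adjusted p = 9.92e-09). Rmrp (-1.14 ± 0.33, adjusted p = 0.00949) and Rpph1 (-0.90 ± 0.31, adjusted p = 0.0229), the RNA parts of RNase MRP and RNase P, changed less.

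The Y RNAs, which bind the Ro60 protein, stayed in excess in EVs. Rny1 had 2593, 2900 and 3614 CPM in stimulated EVs, 412.9, 467.9 and 384.6 CPM in the stimulated cells, 4828, 4106 and 3927 CPM in resting EVs, and 464.5, 372.1 and 384.4 CPM in resting cells. Its change of -0.55 ± 0.28 was not called (adjusted p = 0.135). Rny3 had 131.2, 169.7 and 214.2 CPM in stimulated EVs, 63.7, 69.6 and 69.6 CPM in the stimulated cells, 1077, 1075 and 989.4 CPM in resting EVs, and 176.9, 174.7 and 182.1 CPM in resting cells. EVs exceeded cells in both cultures, by less in the stimulated one, a change of -1.21 ± 0.30 (adjusted p = 0.00295). The vault RNA Vaultrc5 changed by -1.17 ± 0.44 (adjusted p = 0.0401), and 2 of these 3 RNAs were called lower, and 1 of 3 under library totals.

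Nucleolar RNAs, which guide the modification of rRNA, were scarcer in EVs than in cells of both cultures, by more in stimulated ones. Of 153 snoRNAs 68 were lower (44.4%) and 2 higher (median -0.90), and the median log2 EV-to-cell ratio was -2.66 in stimulated and -1.74 in resting cultures. Their share of all counts was 0.472% to 0.532% in stimulated EVs, 2.28% to 2.52% in stimulated cells, 0.252% to 0.324% in resting EVs and 0.890% to 0.964% in resting cells, so the pooled share was larger with stimulation in EVs as well as in cells. Per snoRNA the median log2 difference of the TMM-scaled level, stimulated minus resting, was -0.21 in EVs and 0.76 in cells. The pooled share uses no scaling factor, so these measures differ in scaling as well as in pooling. Under library totals 47 were lower and 6 higher. Box C/D snoRNAs, which guide methylation, had 24 of 59 lower (median -0.81), and box H/ACA snoRNAs, which guide pseudouridylation, 9 of 18 (median -1.47). Snora81, the lowest, had 4.50, 8.12 and 7.62 CPM in stimulated EVs, 38.5, 42.8 and 44.8 CPM in the stimulated cells, 28.5, 31.3 and 15.2 CPM in resting EVs, and 16.5, 21.2 and 20.2 CPM in resting cells, a change of -2.99 ± 0.40 (adjusted p = 2.12e-06). Resting EVs and cells overlapped, stimulated ones did not. Rnu3a, a U3 RNA of rRNA processing chosen after its values were seen, had 28.0, 31.0 and 34.1 CPM in stimulated EVs, 310.4, 334.1 and 366.1 CPM in the stimulated cells, 58.5, 32.7 and 42.4 CPM in resting EVs, and 86.0, 97.1 and 111.7 CPM in resting cells, a change of -2.29 ± 0.39 (adjusted p = 5.36e-05). Snora74a, the next lowest, changed by -2.57. Snord85 (1.43 ± 0.46, adjusted p = 0.0163) and Gm22680 (1.15) were the 2 higher ones. The call was lost in 1 of the 12 leave-one-out fits for Snord85, without resting EVs replicate 2, and for Gm22680 in 8 of the 12 and under DESeq2 and RLE factors. The 3 scaRNAs, which guide the modification of snRNAs, changed by -0.74 to -0.03 with no call.

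The spliceosomal and other snRNAs divided. Of 57 features 17 were higher and 23 lower (median -0.41). Under library totals 19 were higher and 13 lower (median -0.11), and with TMM from miRNAs alone 20 were higher and 8 lower (median 0.01), so which direction was more frequent turned with the scaling. Among those with a U name, all chosen after their values were seen, Rnu2-10 (U2) had 243.7, 253.5 and 312.5 CPM in stimulated EVs, 69.1, 91.0 and 76.3 CPM in the stimulated cells, 105.9, 77.1 and 61.8 CPM in resting EVs, and 47.1, 47.0 and 65.1 CPM in resting cells. It was the stimulated EVs that rose above the other groups, a change of 1.16 ± 0.38 (adjusted p = 0.0188). Rnu5g, a U5 gene, changed by 1.32 ± 0.43 (adjusted p = 0.0198). The U1 genes went the other way, with Rnu1b6 at -1.55 ± 0.39 (adjusted p = 0.00335), Rnu1b2 at -1.07 ± 0.33 (adjusted p = 0.0125), Rnu1b1 at -0.92 ± 0.36 (adjusted p = 0.0456) and Rnu1a1 not called (-0.82, adjusted p = 0.0769). Rnu7, the U7 RNA of histone mRNA processing, changed by -1.37 ± 0.35 (adjusted p = 0.00311), and Rnu11 and Rnu12 of the minor spliceosome were not called (0.35 and -0.41). The unnamed genes at the ends of the list were Gm24136 (-3.46 ± 0.43) and Gm25704 (-3.36) at the low end and Gm24871 (2.20 ± 0.42) and Gm25313 (1.69) at the high end. Without resting EVs replicate 1, 10 snRNAs in place of 23 were called lower.

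rRNA features were mostly copies of 5S rRNA. Of 68 features 62 were lower and 0 higher (median -1.45), but 56 of the 68 are 5S copies that can share reads, among them n-R5s71 and n-R5s185 (-1.79) at the low end. Their sum had 12120, 12870 and 15830 CPM in stimulated EVs, 21060, 26650 and 27830 CPM in the stimulated cells, 12480, 6330 and 5125 CPM in resting EVs, and 4295, 5494 and 6763 CPM in resting cells. Within its group resting EVs replicate 1 was well above the other two, and stimulated EVs lay below stimulated cells in every library. The change of the sum was -1.42 ± 0.45 (adjusted p = 0.0172), and it was not called without resting EVs replicate 1 (-0.94, adjusted p = 0.1) or without resting cells replicate 1 (-1.27, adjusted p = 0.0526). Without the first of these, 21 of the 68 features in place of 62 were called lower. Rn18s-rs5, an 18S-related gene and the most abundant rRNA feature, chosen after its values were seen, averaged 41750 CPM in stimulated EVs, 30270 CPM in the stimulated cells, 14940 CPM in resting EVs and 3474 CPM in resting cells, and changed by -1.64 ± 0.24 (adjusted p = 6.26e-06).

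Counts in long genes are short fragments mapped inside the gene and are not mRNA levels. Of the 2526 protein-coding genes that hold no listed small RNA, 334 were higher (13.2%) and 401 lower (15.9%), with a median of 0.09, against 15.2% and 20.7% over all features. With library totals 434 of them were higher and 304 lower. Of the 306 such long non-coding genes 32 were higher and 79 lower (median -0.12). The largest changes were single genes with sharp differences between EV groups. Fam49a (chromosome 12, 12262139 to 12380965, plus strand), now also named Cyria and related to a Rac1-binding protein, had 634.2, 731.4 and 497.7 CPM in stimulated EVs, 8.19, 3.98 and 4.44 CPM in the stimulated cells, 11.9, 16.7 and 7.33 CPM in resting EVs, and 8.27, 10.2 and 6.16 CPM in resting cells. Of these 4 groups its fragments were abundant in stimulated EVs alone, a change of 6.26 ± 0.70 (adjusted p = 1.29e-07). Fam19a1 (chromosome 6, 96113154 to 96657198, plus strand), a chemokine-like gene, had 392.2, 521.2 and 307.5 CPM in stimulated EVs, 10.7, 15.9 and 12.6 CPM in the stimulated cells, 25.3, 13.2 and 13.6 CPM in resting EVs, and 14.1, 24.3 and 7.92 CPM in resting cells, a change of 4.84 ± 0.69 (adjusted p = 4.88e-06).

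Mcf2l and Obox1 had the same form. Mcf2l (chromosome 8, 12873806 to 13020905, plus strand) had 693.2, 752.9 and 429.4 CPM in stimulated EVs, 30.6, 33.3 and 24.1 CPM in the stimulated cells, 29.2, 38.9 and 30.4 CPM in resting EVs, and 66.1, 47.0 and 66.9 CPM in resting cells, a change of 5.28 ± 0.34 (adjusted p = 1.4e-11). Obox1 (chromosome 7, 15388948 to 15556866, plus strand), a homeobox gene of the oocyte with close relatives beside it, had 193.2, 168.8 and 47.6 CPM in stimulated EVs, 5.70, 6.96 and 5.18 CPM in the stimulated cells, 7.11, 3.47 and 4.71 CPM in resting EVs, and 8.27, 4.70 and 7.04 CPM in resting cells. Replicate 3 of the stimulated EVs was lower than the other two, and the change was 4.93 ± 0.73 (adjusted p = 9.48e-06).

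At the other end resting EVs stood alone, above every library of the other groups for Camk2b, Rpl8 and Ppat. Camk2b (chromosome 11, 5969644 to 6066362, minus strand), the beta subunit of calcium/calmodulin-dependent kinase II, had 79.2, 76.3 and 85.3 CPM in stimulated EVs, 88.3, 82.5 and 82.6 CPM in the stimulated cells, 1951, 1816 and 1977 CPM in resting EVs, and 30.6, 25.1 and 21.1 CPM in resting cells, a change of -6.29 ± 0.31 (adjusted p = 1.72e-13). Rpl8 (chromosome 15, 76904078 to 76906314, plus strand), a protein of the large ribosomal subunit with processed pseudogenes that can share its reads, had 6.75, 5.51 and 6.53 CPM in stimulated EVs, 7.83, 6.46 and 8.14 CPM in the stimulated cells, 123.3, 123.7 and 139.3 CPM in resting EVs, and 10.8, 5.48 and 5.28 CPM in resting cells, a change of -4.42 ± 0.44 (adjusted p = 1.88e-08). Ppat (chromosome 5, 76913249 to 76951578, minus strand), an enzyme of purine synthesis, had 1.75, 3.48 and 4.36 CPM in stimulated EVs, 4.27, 6.96 and 9.25 CPM in the stimulated cells, 97.2, 92.4 and 113.6 CPM in resting EVs, and 10.8, 6.27 and 12.3 CPM in resting cells, a change of -4.50 ± 0.53 (adjusted p = 2.82e-07). The non-coding 2310040G07Rik (-5.10 ± 0.50), the lowest long non-coding gene, lies inside Ppat on the other strand (76928368 to 76947758) and had 96.4, 91.0 and 109.9 CPM in resting EVs, so the reads of this pair cannot be told apart. Gm29554 on chromosome Y changed by -4.28 ± 0.38, and the highest long non-coding gene, 4932412D23Rik, by 4.88 ± 0.86.

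**Figure D5:**
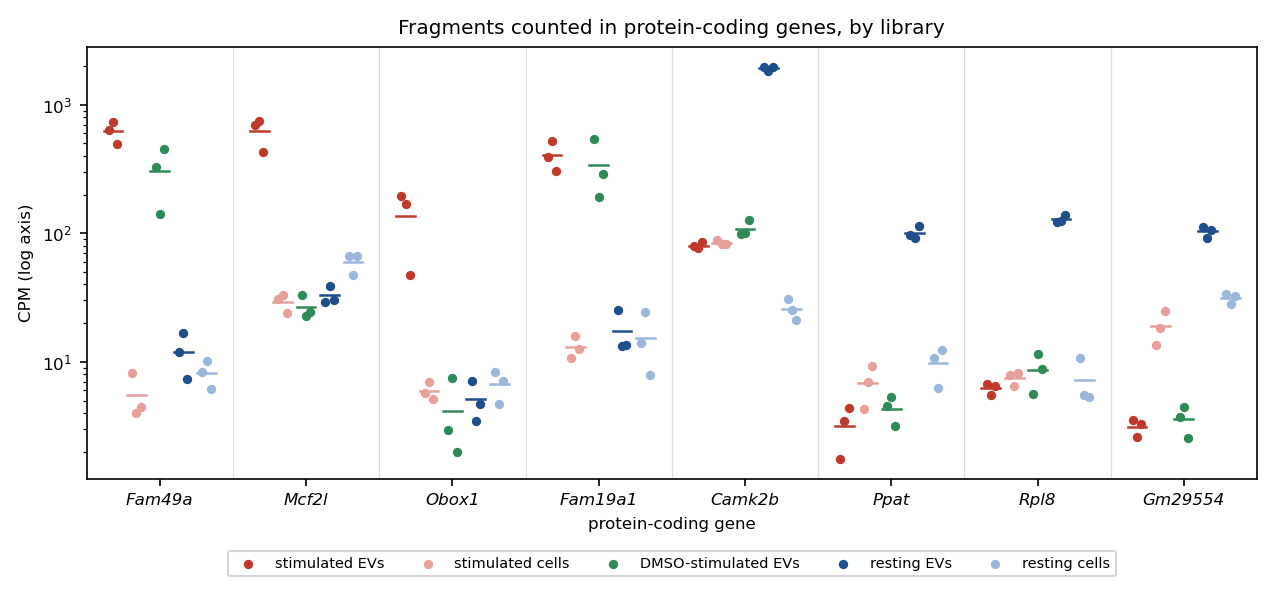
CPM (log axis) of fragments counted in the 4 highest and the 4 lowest protein-coding genes, with points for the 3 libraries and a line for their mean, in stimulated EVs, stimulated cells, DMSO-stimulated EVs, resting EVs and resting cells. Mcf2l and Obox1 are high in stimulated EVs and not in DMSO-stimulated EVs, while Fam49a and Fam19a1 are high in both.

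Cultures stimulated for 3 days with DMSO were compared with the same resting libraries, so both comparisons share the resting arm and only their values are set side by side. The labels give no antibody dose for the DMSO cultures. There the change of ratio was called for 1781 features (40.4%), 834 higher (18.9%) and 947 lower (21.5%), and with library totals 1319 were higher and 636 lower. The median change was -4.66 for the 10 mitochondrial tRNAs in cultures stimulated without DMSO and -4.63 with it, and -4.20 and -4.15 for the mitochondrial rRNAs and mRNAs. Each of the 19 was called lower with and without DMSO. The 14 miscellaneous RNAs had a median of -2.30 without DMSO and -2.14 with it, with 12 and 13 called lower. The 22 sums of 3FR_2 fragments had a median of -1.79 without DMSO and -1.72 with it, with 20 called lower in each. For the 59 sums of the 5FR kinds it was 1.15 without DMSO and 0.64 with it, with 36 and 21 called higher. For the 57 snRNAs it was -0.41 without DMSO and -0.82 with it, with 17 and 3 called higher and 23 and 26 called lower. For the 254 miRNAs it was -0.55 without DMSO and -1.14 with it, with 62 and 168 called lower. Under library totals the miRNA medians were -0.24 without DMSO and -0.74 with it, with 36 and 111 called lower.

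The difference between the EV-to-cell ratios of stimulated and DMSO-stimulated cultures was tested directly, in a comparison added after the data were seen. It was called for 818 features (18.6%), 246 higher (5.58%) and 572 lower (13.0%) in cultures without DMSO. Of the 19 mitochondrial RNAs 1 was called, mt-Rnr1 (-0.72, adjusted p = 0.0414). Of the 2526 protein-coding genes without a listed small RNA 121 were higher and 478 lower (median -0.42), and of the 254 miRNAs 24 were higher and 4 lower (median 0.58). Mcf2l had 693.2, 752.9 and 429.4 CPM in stimulated EVs, against 33.3, 22.6 and 24.3 CPM in DMSO-stimulated EVs, and its ratio differed by 4.82 (adjusted p = 5.94e-10, edgeR). Obox1 had 193.2, 168.8 and 47.6 CPM in stimulated EVs, against 2.93, 7.53 and 2.00 CPM in DMSO-stimulated EVs, and differed by 5.01 (adjusted p = 2.58e-05). Fam49a differed by 1.77 (adjusted p = 0.0399), and Fam19a1 by 0.42 (adjusted p = 0.685). Mir6236 differed by -1.24 (adjusted p = 0.00563), and for Mir212 the difference was 0.28 (adjusted p = 0.586).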

How the data were processed

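Small RNA libraries of T cells and their EVs were deposited as read counts per annotated feature. The submitters' processing notes name Bowtie and the build GRCm38 (mm10). Not given in the sources used here are versions, trimming, how reads with several alignments were treated, the strand setting and the counter. The counts as deposited by the authors had 4441 lines. Dropping 33 full repeats left 4408 features, with a smallest count of 4. Of these, 16 sets had equal counts in every library.

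CPM, log2 changes and their errors were computed from these counts. edgeR 4.0.16 (R 4.3.3) was fitted with TMM factors and 1 no-intercept quasi-likelihood model over the 8 groups and 24 libraries, and the interaction contrast was tested with Benjamini-Hochberg adjustment over all features. filterByExpr (minimum count 10) removed 0 features. A second table summed tRNA loci by anticodon and kind, summed the 5S copies, left out long genes that hold a listed small RNA and kept features with equal counts once (3525 features). Small RNAs inside long genes were found by coordinates, and nuclear tRNAs were not included in that search. The fit was tested on simulated data. For abundant features counting error is small at these depths (1962923 to 3231626 counts in the 12 libraries), and the precision is set by the spread between 3 libraries. For features near the smallest count of 4, counting error is large.

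Named features were the called ones of at least 20 CPM in 1 of the 4 groups: the 8 highest and 8 lowest miRNAs (2 were called higher), 2 and 2 snoRNAs, snRNAs and rRNAs, 4 and 4 protein-coding and 1 and 1 long non-coding genes without a listed small RNA inside, 5 and 5 tRNA sums, and the members of the lists. Members, lists and rule were chosen with earlier results of these data known. Coordinates are those of GENCODE M21 and count from 1. Alternatives were other scalings, DESeq2 1.42.0, limma 3.58.1 (limma-trend), filters, the 12 libraries alone, a replicate block and leaving out each library. A search for the motif GGAG and for the G and C share of mature miRNAs covered the 185 of 254 miRNAs with a RefSeq sequence. GGAG was in 15.7% of these and in 17.5% of the 57 of them called lower. The median G and C shares were 48.8% and 50.0%. These differences were not tested, and miRNAs without a sequence could not be searched. The other 6 libraries, of groups not compared here, entered the fit through the spread, the filter and the joint TMM scaling. With the 12 resting and stimulated libraries alone, the median change was -0.13 over all features and -0.64 over miRNAs.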

Additional observations from a re-analysis of the deposited data

Results flagged for a closer look

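The test of the difference between stimulated and resting cultures in the EV-to-cell ratio passed for 1580 features. The 40 features named for the size of their change were screened for opposite directions in EVs and in cells. Those listed below moved so, each past the adjusted threshold, stimulated against resting. Other features were not screened. Of the 10 mitochondrial tRNAs, 10 were called lower in EVs and 9 higher in cells. Of the 9 mitochondrial rRNAs and mRNAs, 9 were called lower in EVs and 8 higher in cells. The directions are those of TMM-scaled levels and are not given here under another scaling. The causes were not tested.

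Among miRNAs these were Mir212, with a change of ratio of -3.06, Mir877 with -2.16 and Mir132 with -1.75. In all 3 the level was lower in EVs and higher in cells of stimulated cultures. Among snoRNAs and snRNAs, Snora81 (-2.99) and Gm24136 (-3.46) had the same form and Gm24871 (2.20) the opposite one. Camk2b (-6.29) fell in EVs and rose in cells, while Mcf2l (5.28) and 4932412D23Rik (4.88) rose in EVs and fell in cells. Among tRNA sums, tRNA-Asp-GTC:3FR_2 (-3.55) and tRNA-Leu-TAG:3FR_1_up (-2.95) fell in EVs and rose in cells, and tRNA-Gly-GCC:5FR_2 (2.95) and tRNA-Gly-GCC:5FR_S (2.50) rose in EVs and fell in cells.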

How the results depend on the processing

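Leaving out 1 library at a time gave 1353 to 1538 called features in place of 1580, with 557 to 624 higher and 758 to 919 lower, and 949 to 1111 of the table with tRNA loci summed (365 to 434 higher). Counts under DESeq2 (1541), RLE factors (1557), limma-trend (1609), a floor of 20 CPM (1169 called), no filter (1580) and the 12 libraries alone (1810) stayed within 1.5 times of it. TMM factors from miRNAs alone gave 522 lower in place of 912, and library totals gave 1319 higher in place of 834 for DMSO-stimulated minus resting; both move every ratio up by construction of the scaling. Whether replicate numbers pair EVs and cells is not stated in the labels. Deviations of the same number correlated at -0.099 to 0.152 and those of unlike numbers at -0.16 to 0.21. With 3 libraries per group these values cannot settle whether EVs and cells of 1 number shared a culture. The fit with a replicate block called 1473 features, and 1064 of the summed table. Of the 40 features named for the size of their change 5 lost the call under some alternative (Mir193a, Mir150, Snord85, Gm22680 and n-R5s185), in 33 of 787 values, and 0 reversed. Of the 27 called members of the miRNA lists 16 lost it under some alternative, 12 of them in a leave-one-out fit and 14 with TMM from miRNAs alone (Mir155 and Mir146 among these), and 0 reversed. Mir150, Gm22680 and Mir126a were not called with the replicate block, and neither were Mir301, Mir130b, Mir29b-1, Mir17, Mir18 and Mirlet7d. The 3 libraries per group limit small changes, and EV levels near the listing minimum of 4 reads (such as those of mt-Tc, mt-Te and Ppat) carry large counting error.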

Other observations

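A group of 5 precursors in 1 neighbourhood of the X chromosome, chosen after their values were seen, was called lower throughout in EV-to-cell ratio. Mir500 (7237683 to 7237774, minus strand) averaged 84.8 CPM in stimulated EVs, 149.5 CPM in stimulated cells, 477.1 CPM in resting EVs and 346.5 CPM in resting cells, a change of -1.28 ± 0.24 (edgeR quasi-likelihood adjusted p = 0.000217). Mir501 (-1.37 ± 0.28), Mir362 (-1.01 ± 0.25), Mir188 (-1.49 ± 0.35) and Mir532 (-1.28 ± 0.30) lie within the stretch that ends at 7248497 on the same strand. In TMM-scaled levels, each was less abundant in stimulated than in resting cultures in both compartments. Mir423, also chosen after its values were seen, averaged 424.5 CPM in stimulated EVs, 858.2 CPM in stimulated cells, 1716 CPM in resting EVs and 1488 CPM in resting cells, a change of -1.22 ± 0.29 (adjusted p = 0.00199).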
